A study of Mus musculus with 17 samples.

Results

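Brain myeloid cells of the sorted fraction labelled µ were compared between transplanted mice (3 libraries) and adult control mice (3 libraries) over all 13769 genes of the authors' deposited limma table. The comparison takes in every gene of that table and leaves none out. All mice were C57BL/6J. The transplanted animals had received BU and then GFP Lin- cells, and were sampled 3 months later, whereas control µ came from mice 5 months old without a stated treatment. The names µ, TAµ and BU are not explained in the labels, and no label states if the cells sorted after transplantation were GFP-positive. No age is listed for the transplanted mice, so a difference in age from the controls is neither shown nor excluded. Treatment and transplantation differ together between these groups, and age and day of processing may differ with them, so they cannot be told apart. The series text speaks of triplicate mice and the labels list 3 libraries for each of these groups. The authors' fit also holds transplanted TAµ (3 libraries, from the same transplanted mice as the sample letters read) and TAµ of mice at postnatal day 10 (8 libraries), which are used below only for their levels and for 1 test.

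Microglia are the resident macrophages of the brain, and under steady conditions they renew themselves locally. After conditioning that empties the niche, cells derived from transplanted marrow can settle in the brain, take on a microglia-like shape and keep a macrophage expression profile that differs in part from that of the residents. Immediate early genes are transcription factors and feedback regulators that cells transcribe quickly, without new protein synthesis, after a stimulus.

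Each difference is transplanted µ minus control µ on the log2 scale, so that a positive value is higher after transplantation. Fold changes and adjusted p-values are the authors', and the standard error (SE) after each "±" was recovered from the fold change and its p. Values per library were not used here. The mean log2 level of each group was derived from the deposited average and the contrasts. The floor, the median level of genes read as 0 in every library of a group, lay at -4.70, and single derived levels of such genes reached -5.09. Levels are not per length, so they are set side by side only for the same gene or the same list of genes.

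The authors' deposited table called 1557 genes higher in transplanted µ (11.3% of 13769) and 1440 lower (10.5%), with an adjusted p under 0.05. An unadjusted p under 0.05 was listed for 5004 genes. Among called genes the falls were larger than the rises: the median change was -2.76 for those that fell and 1.47 for those that rose in the authors' deposited table. Among called genes that moved by at least 3 on the log2 scale, 680 fell and 424 rose. The median fold change over all genes was 0.19, and the median SE was 0.62. The split followed expression. In the quartile of lowest average expression 6.36% of genes rose and 13.9% fell, with a median SE of 1.27, whereas in the highest quartile 23.4% rose and 10.5% fell, with a median SE of 0.28. The lowest quartile held 480 of the falls and 219 of the rises, and the highest held 363 and 804. A call at a larger SE needs a larger change, so the median sizes also depend on where the calls lie in expression. In 182 genes the control µ level lay at the floor, in 135 the transplanted µ level did, and in 29 both did.

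**Figure D1:**
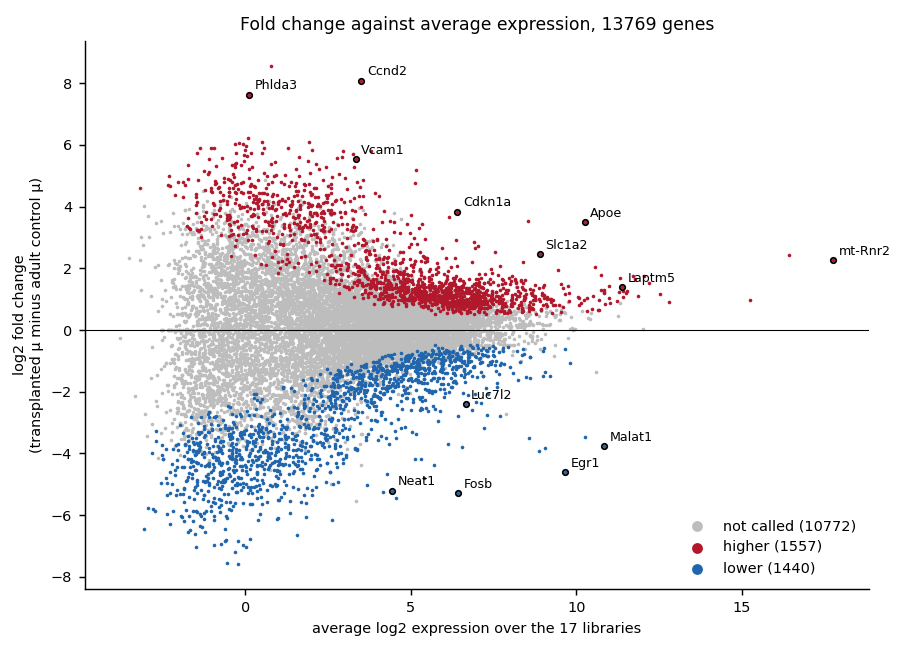
Log2 fold change (transplanted µ minus adult control µ) of each of the 13769 genes against its average log2 expression over the 17 libraries, with genes called at an adjusted p of 0.05 in red (1557 higher) and blue (1440 lower). At high expression the red points outnumber the blue, while Malat1, Egr1, Fosb and Neat1 lie far below 0 and mt-Rnr2, the most abundant gene, lies above it.

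The kind of gene also went with the direction. Of 13208 genes matched by symbol to RefSeq (GRCm38.p6), 12191 were protein coding, of which 12.1% rose and 9.17% fell. Of 289 long non-coding RNA genes, 7 rose and 82 fell (28.4%), with a median of -1.51. All 15 calls among 19 small nucleolar RNA (snoRNA) genes were falls, with a median of -3.93. These RNAs guide chemical modification of ribosomal RNA and mostly lie in introns of other genes, so reads from a host transcript cannot be told apart from theirs and their values are uncertain. Falls were not particular to snoRNA genes: 5 of 6 microRNA genes and 3 of 7 small nuclear RNA genes fell, and 0 of either rose. Predicted genes and clone names (1844 genes) fell in 17.9% and rose in 5.64%. This grouping by kind of gene was chosen after the values were seen. Transcript features showed weaker contrasts. Of 12828 genes with a GENCODE transcript, 15.4% of the fifth with the lowest GC content rose against 8.46% of the fifth with the highest, while the shares that fell were 9% and 10.4%. Across these genes the fold change had a Spearman rho of -0.05 with GC content and -0.01 with transcript length, as a description over genes that share libraries.

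**Figure D2:**
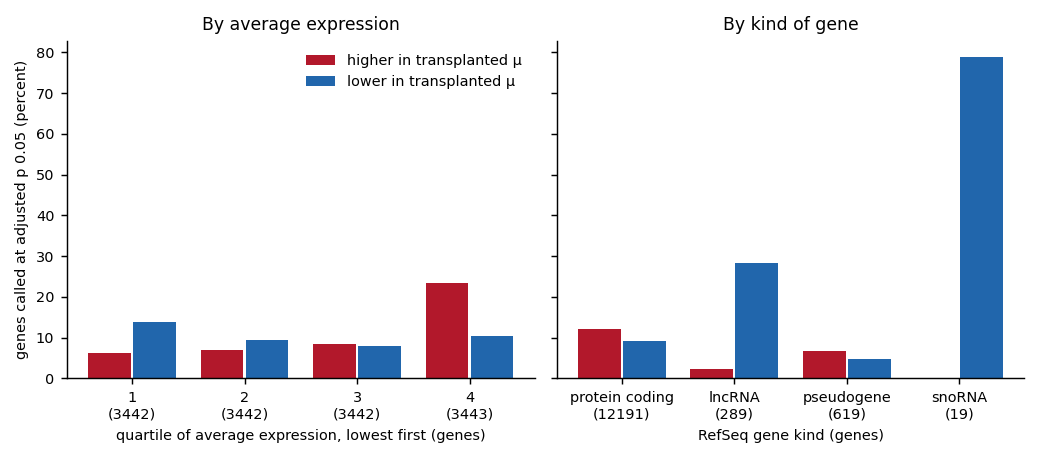
Percent of genes called higher (red) and lower (blue) in transplanted µ at an adjusted p of 0.05, by quartile of average expression (left) and by RefSeq kind of gene (right), with the number of genes in brackets. Rises peak in the top quartile at 23.4%, and among the kinds drawn falls are most frequent for snoRNA genes, at 78.9%. Other kinds were not drawn, among them microRNA genes, of which 5 of 6 fell.

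The microglial label was checked first. All 9 defining genes of homeostatic microglia were abundant in both groups, with levels between 9.17 and 11.92 in control µ and between 9.33 and 12.03 in transplanted µ. P2ry12, a purinergic receptor that steers process movement, had a level of 10.97 in control µ and 12.03 in transplanted µ. Csf1r, the receptor for the survival factor of microglia, lay at 11.92 and 11.95. Of 43 measured homeostatic genes 15 rose and 2 fell, with a median of 0.58, and centring all fold changes on their median left 8 that rose and 3 that fell. The rises were of moderate size: the authors' deposited table gave 1.52 ± 0.25 for Pros1 (adjusted p 0.000681), a bridging ligand of phagocytic receptors, and 1.52 ± 0.31 for Sparc (adjusted p 0.00276), a matricellular protein. Olfml3, a secreted microglial glycoprotein, rose by 0.95 ± 0.21 and Fcrls, a microglial Fc receptor-like gene, by 1.19 ± 0.27, with adjusted p of 0.00463 and 0.00634 as listed in the authors' deposited table. Several defining genes did not pass, among them Cx3cr1, the fractalkine receptor, at 0.46 ± 0.21, Siglech, a sialic acid-binding lectin, at -0.19 ± 0.27 and Gpr34, a lysophospholipid receptor, at 0.62 ± 0.33 in the authors' deposited table.

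Transcription factors of microglia split in both directions. Of 38 measured, 5 rose (13.2%) and 8 fell (21.1%), against 11.3% and 10.5% of all genes, with a median of -0.06. The large Maf factor Maf rose by 1.0 ± 0.17 (adjusted p 0.00112) as given in the authors' deposited table. Etv5, an Ets factor downstream of MAP kinase signalling, rose by 1.31 ± 0.24 and Smad7, the inhibitory Smad, fell by 2.58 ± 0.64 in the authors' deposited table. Mef2c, a microglial MADS-box factor, stood at 0.50 ± 0.21 and Irf8, a factor needed for microglia, at -0.38 ± 0.20, both short of the threshold in the authors' deposited table. Among Hox, Meis and Nfi genes, the authors' deposited table gave rises of Nfib (5.30 ± 1.16) and Meis2 (4.81 ± 1.12) and a fall of Hoxb4 by 2.98 ± 0.83. The control µ levels of these called genes were low, at -1.41 for Nfib, -1.80 for Meis2 and -0.08 for Hoxb4. The remaining 8 of these 11 genes were not called.

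Genes that mark marrow-derived macrophages of the brain were mostly higher. Of 35 measured, 13 rose and 1 fell, with a median of 1.56, against 11.3% and 10.5% over all genes. Beyond Apoe, Mrc1 and Ms4a7, the authors' deposited table had rises of Cybb, the catalytic subunit of the phagocyte oxidase, at 3.43 ± 0.68 (adjusted p 0.00249) and of Axl, a receptor for apoptotic cells, at 2.78 ± 0.62 (adjusted p 0.00513). Ms4a6b rose by 1.53 ± 0.23 and Ifitm3, an interferon-inducible membrane protein, by 3.80 ± 1.06 in the authors' deposited table. Klra2, a Ly49-family lectin, rose by 4.82 ± 1.31, and the extracellular matrix gene Emilin2 was the 1 that fell, by 4.43 ± 1.01, in the authors' deposited table. The levels in the 4 groups differed from gene to gene. Ms4a7 had -2.90 in control µ, 2.91 in transplanted µ, 7.95 in transplanted TAµ and 1.32 in P10 TAµ. Cybb lay at 3.15, 6.58, 9.73 and 3.05 in the same order, and Axl at 3.11, 5.89, 9.15 and 3.82. In these 3 genes, chosen after their values were seen, the transplanted µ mean exceeded that of both control groups and was below that of transplanted TAµ. Mrc1 had another order, at 4.01, 7.56, 10.68 and 9.81, and Apoe lay at 6.66, 10.14, 14.11 and 10.22, so transplanted µ did not exceed P10 TAµ in either. The summed log2 level of the list was 9.49 in control µ, 11.39 in transplanted µ, 14.66 in transplanted TAµ and 11.68 in P10 TAµ. Whether every cell carries an intermediate level or a fraction of cells carries a high one cannot be told apart in bulk samples, as fewer cells of a type and less RNA per cell give the same value.

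Border-associated macrophage genes rose in 10 of 27 measured (37.0%), with 0 falls, but the defining genes were divided. Mrc1, a mannose receptor, was the only called gene of the 5, while Cd163 stood at -1.87 ± 1.43, Lyve1 at -0.45 ± 2.06, F13a1 at 1.57 ± 1.49 and Pf4 at 0.96 ± 1.17 in the authors' deposited table. Cd36, a scavenger receptor, rose by 4.04 ± 1.04 and Clec4n, a C-type lectin, by 4.13 ± 1.17 in the authors' deposited table. Of 16 monocyte genes 0 rose and 2 fell (12.5%), namely Nr4a1 and Spn. Of 12 neutrophil genes 0 rose and 1 fell (8.33%), namely Csf3r, which is also on the homeostatic list. The shares that fell were near the 10.5% of all genes. All 12 neutrophil genes nevertheless had negative fold changes, with a median of -1.12. Their summed log2 level was 9.79 in control µ and 8.67 in transplanted µ. Ccr2, the receptor of inflammatory monocytes, lay at 2.46 in control µ and 3.35 in transplanted µ, and Plac8 at -4.86 and -3.05. S100a8, a neutrophil alarmin, lay at 7.0 and 5.76. For lymphocytes 5 of 24 genes were measured and 0 were called. Of 12 stem and progenitor cell genes 2 rose (16.7%) and 1 fell (8.33%), with a median of 0.16. Cd34, which resident microglia also express at a level of 6.70 in the control libraries here, rose by 0.99 ± 0.26 in the authors' deposited table. Hlf rose by 1.66 ± 0.43 in the same source, and Hoxb4, given above, was the 1 that fell.

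Transcripts of other brain cells stood higher in transplanted µ as well. Of 18 astrocyte genes 13 rose and 0 fell, with a median of 2.68, of 20 neuronal genes 9 rose and 0 fell, with a median of 3.00, and of 16 oligodendrocyte genes 5 rose and 0 fell, with a median of 2.35. The authors' deposited table gave 2.45 ± 0.52 for Slc1a2, the astrocytic glutamate transporter, 3.17 ± 0.58 for Snap25, a synaptic vesicle fusion protein, and 2.54 ± 0.62 for Mbp, myelin basic protein. Slc1a2 had a level of 8.01 in control µ and 10.47 in transplanted µ, Snap25 3.43 and 6.60, and Mbp 6.72 and 9.26. The summed log2 level of the 18 astrocyte genes was 10.70 in control µ, 12.08 in transplanted µ, 12.83 in transplanted TAµ and 10.63 in P10 TAµ. For the neuronal genes the sums were 6.61, 8.59, 9.36 and 7.36, and for the oligodendrocyte genes 7.91, 9.96, 10.78 and 7.72. Both transplanted groups lay above both control groups on each sum. Not every defining marker was called: Aldh1l1 stood at 1.12 ± 1.67, Aqp4 at 0.81 ± 0.60, Mog at 0.49 ± 1.52 and Mag at -0.95 ± 0.85 in the authors' deposited table. Several of the largest single rises were genes of this kind, as described at the end. The part of RNA from other cells in the changes of other gene groups was not tested. Endothelial and mural genes did not share the pattern, with 2 rises and 1 fall among 15, and Acta2, smooth muscle actin, fell by 4.15 ± 0.77 in the authors' deposited table.

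**Figure D3:**
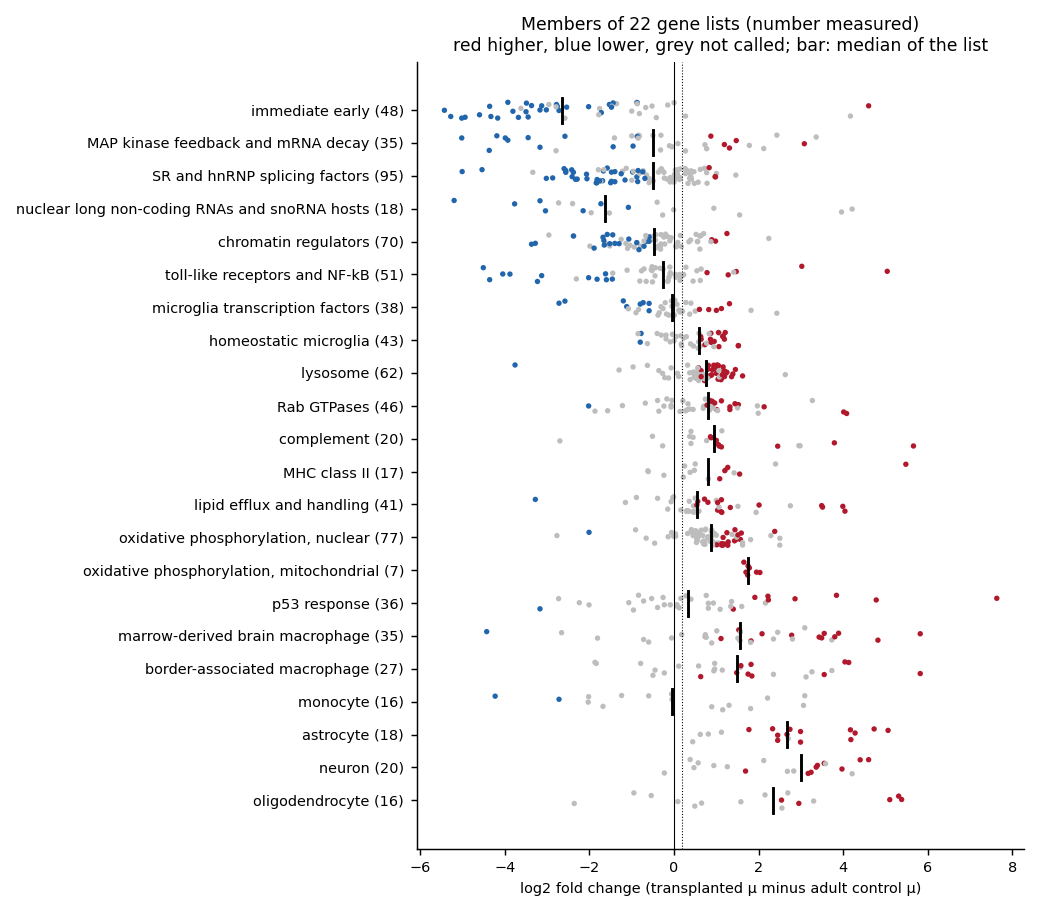
Log2 fold change (transplanted µ minus adult control µ) of each measured member of 22 gene lists, red where called higher, blue where called lower and grey where not called, with a bar at each list's median and a dotted line at the median of all genes (0.19). The immediate early list lies furthest left with a median of -2.65, and the neuronal (3.00) and astrocyte (2.68) lists lie furthest right.

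Immediate early genes were lower. Of 48 measured, 28 fell (58.3%, against 10.5% of all genes) and 1 rose, with a median of -2.65, and centring left 29 that fell. The AP-1 subunits moved together: Fos fell by 3.5 ± 0.53, Junb by 2.76 ± 0.42 and Jund by 2.54 ± 0.57 in the authors' deposited table. The negative regulators of the same response were lower too, with falls of 3.93 ± 0.56 for Dusp1, a MAP kinase phosphatase, 3.45 ± 0.47 for Zfp36, an mRNA decay factor, and 3.17 ± 0.35 for the anti-proliferative gene Btg2 in the authors' deposited table. Atf3, a stress-induced ATF factor, fell by 4.17 ± 0.60 and Klf4, a zinc finger factor, by 3.68 ± 0.58 in the authors' deposited table. Per1 fell by 3.49 ± 0.70, and its relatives Per2 and Per3 fell by 2.87 ± 0.98 and 3.37 ± 1.03 in the authors' deposited table, while Clock and Arntl, the positive limb of the clock, were not called. Id3, a dominant-negative helix-loop-helix protein, was the 1 gene that rose; its control level of -4.32 was near the floor, so the size of that rise depends on how 0 counts were handled. The median level of the 48 genes was 6.10 in control µ, 3.35 in transplanted µ, 3.60 in transplanted TAµ and 5.20 in P10 TAµ. Fos lay at 9.93, 6.43, 6.52 and 9.64, and Dusp1 at 10.97, 7.04, 6.83 and 9.53, so both transplanted fractions were low and both control fractions high. Atf3 had another order, at 7.90, 3.73, 4.31 and 4.90, with control µ alone high.

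Promoter windows of 3 fallen immediate early genes are shown because they hold the full cAMP response element TGACGTCA, which was searched on both strands in the 250 bases before each RefSeq start (GRCm38.p6) and is printed in capitals. It was found in 3 of 23 fallen immediate early genes with a window (13%), in 3 of all 38 measured ones with a window (7.89%) and in 3.07% of the 9437 genes of the table with one. A match describes letters in these windows and is not a measured binding site.
Btg2 (chr1:134079156-134079405, minus strand): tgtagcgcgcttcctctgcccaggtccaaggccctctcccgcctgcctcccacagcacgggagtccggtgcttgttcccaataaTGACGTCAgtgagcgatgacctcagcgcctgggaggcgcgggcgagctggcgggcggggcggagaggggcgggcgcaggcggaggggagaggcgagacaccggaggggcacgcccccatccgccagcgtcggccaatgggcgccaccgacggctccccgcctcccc
Dusp1 (chr17:26508473-26508722, minus strand): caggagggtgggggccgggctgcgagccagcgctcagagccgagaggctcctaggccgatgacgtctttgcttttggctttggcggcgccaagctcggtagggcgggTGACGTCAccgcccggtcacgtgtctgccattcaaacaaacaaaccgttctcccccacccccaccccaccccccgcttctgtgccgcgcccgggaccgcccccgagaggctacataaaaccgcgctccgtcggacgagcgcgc
Maff (chr15:79347270-79347519, plus strand): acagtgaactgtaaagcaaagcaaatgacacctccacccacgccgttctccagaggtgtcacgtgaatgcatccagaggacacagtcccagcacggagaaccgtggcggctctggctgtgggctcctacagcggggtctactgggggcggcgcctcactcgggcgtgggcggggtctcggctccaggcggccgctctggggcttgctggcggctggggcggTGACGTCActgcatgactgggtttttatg
Maff, a small Maf factor, fell by 4.33 ± 1.10 (adjusted p 0.0109) as given in the authors' deposited table, from a level of 3.25 in control µ to -1.08 in transplanted µ.

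Related signalling genes went partly the same way. Of 35 genes of MAP kinase feedback and mRNA decay, 11 fell (31.4%) and 5 rose (14.3%), some of them shared with the immediate early list. Dusp2 fell by 5.02 ± 1.11 and Dusp4 by 3.99 ± 1.23, whereas Dusp3 rose by 1.47 ± 0.37 and Dusp7 by 1.19 ± 0.23 in the authors' deposited table, all of them phosphatases of the same family. Spry1, a receptor tyrosine kinase inhibitor, fell by 4.37 ± 1.33, and Spred1, its relative, rose by 0.87 ± 0.21 in the authors' deposited table. Of 51 genes of toll-like receptor and NF-kB signalling, 11 fell (21.6%) and 5 rose (9.80%). In both lists the share that fell was above the 10.5% of all genes, and the share that rose was near their 11.3%. The fallen ones included inhibitors and feedback genes of NF-kB, at -2.02 ± 0.34 for Tnfaip3, -4.36 ± 0.77 for Nfkbiz and -3.13 ± 0.94 for Nfkbia in the authors' deposited table. The receptors were divided, with rises of Tlr2 (1.28 ± 0.29), Tlr8 (5.04 ± 1.03) and Tlr13 (0.78 ± 0.20), a fall of Tlr1 by 1.62 ± 0.50, and no call for Tlr4 (0.23 ± 0.24) in the authors' deposited table. Of 37 cytokine and chemokine genes 7 rose (18.9%) and 3 fell (8.11%), with a median of 0.28. The falls were all of CC chemokines, by 3.68 ± 0.73 for Ccl3, 3.83 ± 0.96 for Ccl4 and 3.55 ± 1.10 for Ccl2 in the authors' deposited table. Tnf stood at -2.78 ± 1.10 (adjusted p 0.0763) and Il1b at -1.76 ± 1.42 in the authors' deposited table, short of the threshold. The rises included Igf1, a growth factor (5.19 ± 1.40), Il33, an alarmin (5.37 ± 0.97), and Cxcl16 (1.02 ± 0.27) in the authors' deposited table.

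RNA-processing genes formed a second block of falls. Of 95 genes of SR and hnRNP splicing factors, 34 fell (35.8%) and 3 rose, with a median of -0.49, and centring left 39 that fell. Several of them were among the smallest adjusted p-values of the whole comparison: Luc7l2, a U1-associated factor, fell by 2.41 ± 0.18 (adjusted p 4.6e-07), and Rbm25 by 2.06 ± 0.21 and Hnrnph1 by 1.48 ± 0.15 (both adjusted p 1.54e-05), per the authors' deposited table. Of the Clk kinases, which phosphorylate SR proteins, Clk1 fell by 2.38 ± 0.27, Clk2 by 1.69 ± 0.38 and Clk4 by 2.56 ± 0.45, while Clk3 (0.27 ± 0.66) was not called in the authors' deposited table. Srsf5 fell by 2.07 ± 0.26, Tra2a by 1.58 ± 0.31 and Tra2b by 2.56 ± 0.45 in the authors' deposited table, whereas Ptbp3 rose by 0.83 ± 0.20. Luc7l2 had a level of 8.29 in control µ, 5.88 in transplanted µ, 6.28 in transplanted TAµ and 6.48 in P10 TAµ, and Clk1 had 8.86, 6.49, 6.42 and 7.0. For both genes, chosen after their values were seen, control µ stood apart from the other 3 groups. Rbm25 had another order, at 8.47, 6.41, 6.32 and 7.65, with P10 TAµ above both transplanted groups. The median of the list was also negative for transplanted TAµ minus P10 TAµ, at -0.54.

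Nuclear RNAs were lower by more. Malat1, an abundant nuclear-retained RNA, had levels of 13.55 in control µ, 9.78 in transplanted µ, 9.43 in transplanted TAµ and 10.74 in P10 TAµ. Neat1, the scaffold of paraspeckles, lay at 8.18, 2.98, 3.76 and 3.84, with control µ again alone. Of 18 measured nuclear long non-coding RNAs and snoRNA hosts, 7 fell and 0 rose, including Dleu2 (-3.17 ± 0.47), Snhg5 (-2.15 ± 0.65) and Gas5 (-1.08 ± 0.32) in the authors' deposited table. Among the snoRNAs, Snord65 (-5.80 ± 1.08) and Snora31 (-5.09 ± 0.88) had the smallest adjusted p-values after a predicted gene in the authors' deposited table, 0.00173 and 0.00103; they were chosen after their values were seen.

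Chromatin regulators fell in 19 of 70 (27.1%) and rose in 3. The authors' deposited table had falls of the remodellers Chd2 (by 1.68 ± 0.22) and Chd7 (by 1.65 ± 0.26), of the histone demethylase Kdm6b (by 1.58 ± 0.27) and of the DNA demethylases Tet2 (by 1.40 ± 0.24) and Tet3 (by 1.52 ± 0.33). Dnmt1 and Ezh2 were not called. Genes named Zfp fell in 34 of 306 (11.1%), which is near the background of 10.5%, and rose in 6 (1.96%), below the background of 11.3%. Histone genes fell in 6 of 51 (11.8%), also near the background, and rose in 1 (1.96%). Cytosolic ribosomal protein genes were divided, with 10 falls (11.8%) and 6 rises (7.06%) among 85 and a median of 0.52. Rpl10 fell by 2.92 ± 0.49 and Rpl4 rose by 1.04 ± 0.20 in the authors' deposited table, and since these genes have many near-identical pseudogene copies their counts are uncertain.

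Mitochondrially encoded transcripts were higher without exception among the 7 protein-coding genes measured, with changes between 1.65 and 2.03. The largest was mt-Nd2, a complex I subunit, at 2.03 ± 0.47 (adjusted p 0.00692), and mt-Cytb, of complex III, had 1.65 ± 0.37 (adjusted p 0.00566) as given in the authors' deposited table. mt-Co1, of complex IV, had levels of 10.79 in control µ, 12.53 in transplanted µ, 13.64 in transplanted TAµ and 11.75 in P10 TAµ. The large ribosomal RNA mt-Rnr2 rose by 2.27 ± 0.30 (adjusted p 0.00017, the authors' deposited table), from a level of 16.19 to 18.46. Nuclear-encoded respiratory chain genes rose in 16 of 77 (20.8%) and fell in 1, with a median of 0.87, and centring left 9 that rose. Atp5b, of the ATP synthase, rose by 1.15 ± 0.22 and Sdha, of complex II, by 1.13 ± 0.26 in the authors' deposited table. Mitochondrial ribosomal proteins rose in 3 of 72 (4.17%), below the background. For glycolysis 6 of 32 rose (18.8%, against 11.3% of all genes) and 0 fell. The rises included Ldha, lactate dehydrogenase, at 1.82 ± 0.37 and Pkm, pyruvate kinase, at 0.86 ± 0.27 in the authors' deposited table. Gapdh (0.32 ± 0.42) was not called there, and Pkm lost its call under centring (adjusted p 0.083).

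Lysosomal genes were higher. Of 62 measured, 32 rose (51.6%, against 11.3% of all genes) and 1 fell, with a median of 0.75, and centring left 21 that rose and 2 that fell. Laptm5, a lysosomal membrane protein of blood cells, rose by 1.39 ± 0.23 and Lamp1, the major membrane glycoprotein, by 1.04 ± 0.23 in the authors' deposited table. Enzymes rose alongside, with 0.91 ± 0.22 for Ctsd and 0.94 ± 0.22 for Ctsb, both cathepsins, and 1.45 ± 0.25 for Fuca1, a fucosidase, in the authors' deposited table. Gaa, the acid glucosidase, rose by 1.20 ± 0.23 and Galc, the galactosylceramidase, by 1.25 ± 0.32 in the authors' deposited table. Npc1 and Npc2, which export cholesterol from lysosomes, rose by 0.72 ± 0.21 and 1.11 ± 0.31 in the authors' deposited table, and centring ended the call of Npc1 (adjusted p 0.077). The median level of the 62 genes was 6.65 in control µ, 7.51 in transplanted µ, 7.37 in transplanted TAµ and 7.16 in P10 TAµ, so control µ was the lowest of the 4. Rab GTPases, switches of vesicle traffic, rose in 15 of 46 and fell in 1, with 0.96 ± 0.24 for Rab7 of late endosomes and 1.01 ± 0.16 for Rab1 of early secretion in the authors' deposited table. Autophagy genes rose in 7 of 42 (16.7%) and fell in 4 (9.52%), against 11.3% and 10.5% of all genes, and centring left 5 of each. The LC3 family members Map1lc3b (1.20 ± 0.29) and Gabarap (1.05 ± 0.26) rose and Atg16l1 fell by 1.67 ± 0.46 in the authors' deposited table.

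Windows of 3 lysosomal genes that rose are shown because they hold TCACGTGA, the core of the element read by TFEB, searched on both strands in the same 250 bases and printed in capitals. It overlaps the E-box CACGTG. It was found in 3 of 27 risen lysosomal genes with a window (11.1%), in 6 of all 49 measured ones with a window (12.2%) and in 1.78% of the genes of the table with one.
Ctsd (chr7:142387828-142388077, minus strand): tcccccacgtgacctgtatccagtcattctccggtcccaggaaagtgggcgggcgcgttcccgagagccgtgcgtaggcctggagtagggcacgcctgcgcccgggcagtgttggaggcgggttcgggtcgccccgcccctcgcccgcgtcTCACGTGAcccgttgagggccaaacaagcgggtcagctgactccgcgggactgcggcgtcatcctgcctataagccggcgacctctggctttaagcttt
Ctsa (chr2:164833523-164833772, plus strand): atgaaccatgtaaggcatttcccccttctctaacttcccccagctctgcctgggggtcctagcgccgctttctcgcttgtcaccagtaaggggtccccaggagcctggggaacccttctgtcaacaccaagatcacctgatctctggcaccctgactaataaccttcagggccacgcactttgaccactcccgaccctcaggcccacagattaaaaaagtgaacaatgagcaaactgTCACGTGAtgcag
Atp6v1a (chr16:44139260-44139509, minus strand): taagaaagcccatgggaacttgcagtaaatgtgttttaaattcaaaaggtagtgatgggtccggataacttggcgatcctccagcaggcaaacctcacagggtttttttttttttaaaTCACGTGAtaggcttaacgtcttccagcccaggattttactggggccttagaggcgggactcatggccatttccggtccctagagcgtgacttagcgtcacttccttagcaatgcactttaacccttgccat
Ctsa, the protective protein cathepsin A, rose by 0.80 ± 0.17 and Atp6v1a, a subunit of the proton pump, by 1.14 ± 0.29 in the authors' deposited table.

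Lipid genes rose more often than they fell. Of 41 genes of lipid efflux and handling 15 rose (36.6%, against 11.3% of all genes) and 1 fell, with 1.03 ± 0.20 for Abcg1 and 0.56 ± 0.19 for Abca1, the cholesterol exporters, in the authors' deposited table. Centring left 9 that rose and ended the call of Abca1 (adjusted p 0.177). Of 39 genes of cholesterol and fatty acid synthesis 8 rose (20.5%) and 1 fell. The desaturases Scd2 (2.19 ± 0.35), Scd1 (3.13 ± 0.75) and Fads1 (0.99 ± 0.26) rose in the authors' deposited table, while Fads3 fell by 4.54 ± 0.90. Hmgcs1, an early enzyme of the mevalonate pathway, rose by 1.67 ± 0.33 in the authors' deposited table. Iron and oxidative stress genes rose in 10 of 38 (26.3%) and fell in 0, among them Sod1 (1.01 ± 0.24), Sod2 (1.66 ± 0.31) and the ferritin heavy chain gene Fth1 (1.18 ± 0.32) in the authors' deposited table. Hmox1, heme oxygenase, was not called, at 0.68 ± 0.39 in the authors' deposited table.

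Immune recognition genes were higher in some lists and divided in others. Of 20 complement genes 9 rose (45.0%) and 0 fell, and centring left 5 that rose. C1qb (0.88 ± 0.24) and C1qc (0.86 ± 0.27) rose with C3 (3.79 ± 1.25) in the authors' deposited table, while C1qa (0.77 ± 0.32, adjusted p 0.0935) did not pass. Centring ended the calls of C1qb and C1qc, with adjusted p of 0.0521 and 0.0804. The integrin chains of complement receptor 3, Itgam and Itgb2, rose by 1.05 ± 0.32 and 1.12 ± 0.21 in the authors' deposited table, and centring ended the call of Itgam (adjusted p 0.0598). Of 17 genes of MHC class II presentation 5 rose and 0 fell, with 5.48 ± 1.34 for H2-Eb1 and 1.55 ± 0.47 for Cd74, the invariant chain, in the authors' deposited table. The other class II chains H2-Aa (2.40 ± 0.90) and H2-Ab1 (1.23 ± 0.73) were short of the threshold in the authors' deposited table. Cd74 lay at 4.53 in control µ, 6.08 in transplanted µ, 9.23 in transplanted TAµ and 3.90 in P10 TAµ, the order seen for Cybb. Of 23 genes of MHC class I and the immunoproteasome 4 rose (17.4%) and 2 fell (8.70%). B2m, the light chain of class I, rose by 1.43 ± 0.29, while the heavy chain genes H2-D1 (0.83 ± 0.37) and H2-K1 (0.68 ± 0.34) were not called in the authors' deposited table. Among other class I genes, H2-Q7 fell by 3.41 ± 0.98 and H2-T24 fell by 1.28 ± 0.43 in the authors' deposited table. Interferon-response genes were near the background, with 6 rises and 3 falls among 46 (13% and 6.52%), and centring left 3 of each: Ifit3 rose by 3.67 ± 1.06 and Mx1 fell by 3.94 ± 1.08 in the authors' deposited table. Genes of amoeboid and disease-associated microglia rose in 12 of 35 and fell in 0, with Cst7, a cystatin, at 4.47 ± 0.95 and Cd68, an endosomal glycoprotein, at 1.03 ± 0.20 in the authors' deposited table. The defining genes of that state, Itgax (1.13 ± 1.05), Spp1 (-0.91 ± 1.31), Gpnmb (0.59 ± 1.26), Clec7a (-2.72 ± 1.62) and Lpl (1.51 ± 0.84), were all short of the threshold in the authors' deposited table, and Trem2 stood at 0.16 ± 0.43.

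Phagocytosis and adhesion genes included ligands and receptors. Of 29 genes of TAM receptors and phagocytosis 11 rose (37.9%) and 1 fell, and centring left 7 that rose. In this list the ligand Gas6 rose by 1.84 ± 0.22 (adjusted p 5.73e-05) and the receptor Axl rose as given above in the authors' deposited table, whereas the receptor Mertk stood at -0.31 ± 0.18. Rac1, the GTPase of phagocytic cups, rose by 1.41 ± 0.19 and Arpc2, of the Arp2/3 complex, by 1.61 ± 0.24 in the authors' deposited table. Of 36 TGF-beta pathway genes 9 rose (25%) and 2 fell, with the receptors Tgfbr1 (0.63 ± 0.18) and Tgfbr2 (0.61 ± 0.20) and the ligand Tgfb1 (0.76 ± 0.24) higher in the authors' deposited table. Centring left 4 that rose and ended the calls of these 3 genes, with adjusted p of 0.0888, 0.149 and 0.102. Of 38 integrin and adhesion genes 10 rose and 3 fell. Vcam1, an adhesion molecule, rose by 5.54 ± 1.33, and Itga5, a fibronectin receptor chain, fell by 3.89 ± 1.15 in the authors' deposited table. Solute carriers rose in 34 of 218 (15.6%) and fell in 17 (7.80%), and centring turned this to 19 rises and 23 falls.

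Some genes of the p53 response were higher. Of 36 measured, 8 rose and 1 fell, with a median of 0.34. Ccng1 rose by 2.86 ± 0.32 and Trp53inp1, a pro-apoptotic target, by 2.22 ± 0.28 in the authors' deposited table, while Mdm2 (-0.53 ± 0.24) and Bax (1.36 ± 0.49, adjusted p 0.0577) were not called. Phlda3, an inhibitor of Akt and the rise with the smallest adjusted p among genes other than predicted ones, 1.9e-05 in the authors' deposited table, had a control level of -4.32, near the floor, so that its fold change of 7.63 ± 0.78 carries no firm size. Of 32 genes of the Bcl2 family and caspases 3 rose and 3 fell (9.38% each), near the 11.3% and 10.5% of all genes. Bak1 (1.78 ± 0.32), Bcl2l1 (1.31 ± 0.30) and Bcl2 (1.54 ± 0.50) rose in the authors' deposited table. Mcl1 fell by 0.61 ± 0.20, Cflar by 0.85 ± 0.18 and Birc2 by 2.21 ± 0.74 in the authors' deposited table. Centring ended the call of Bcl2 (adjusted p 0.0622). DNA repair genes fell in 8 of 46 (17.4%) and rose in 1, with falls of Trp53bp1 (by 1.36 ± 0.32), Prkdc (by 1.24 ± 0.33) and Rad50 (by 1.16 ± 0.31), which act at double-strand breaks, in the authors' deposited table. Atm stood at -0.70 ± 0.37 in the authors' deposited table. The G1 cyclins diverged: Ccnd1 (2.08 ± 0.32) and Ccnd2 (8.08 ± 1.48) rose and Ccnd3 fell by 3.22 ± 0.81 in the authors' deposited table. Ccnd2 lay at -2.52 in control µ, 5.55 in transplanted µ, 5.61 in transplanted TAµ and 4.21 in P10 TAµ. Proliferation genes were near or below the background, with 3 rises and 2 falls among 43, and Mki67 stood at 3.44 in control µ and 3.86 in transplanted µ, against 8.72 in P10 TAµ. The direction of the gap to P10 TAµ was fixed beforehand, since the sign of the contrasts was read from Mki67.

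**Figure D4:**
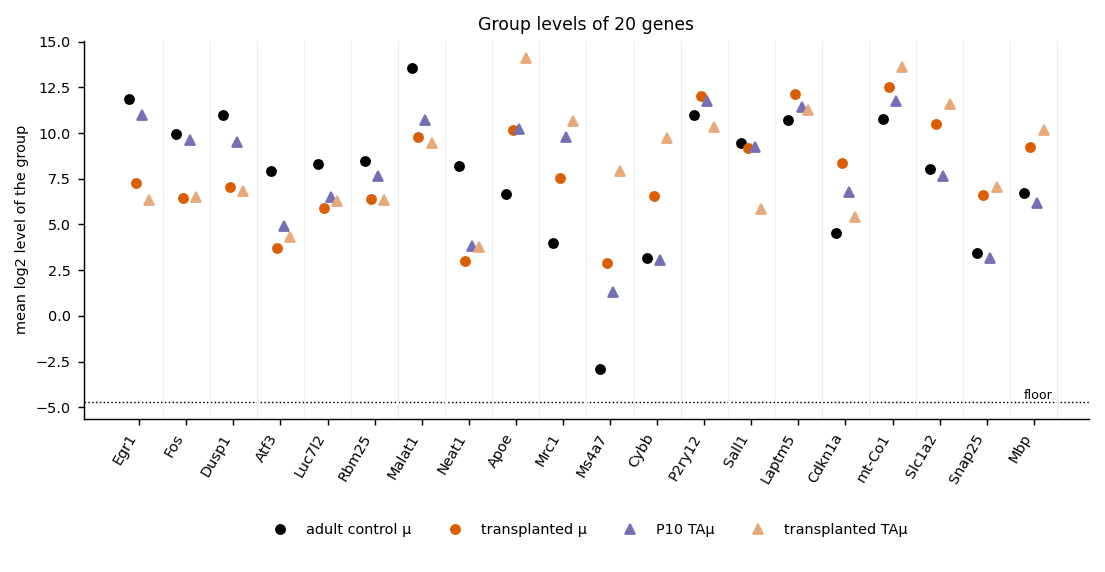
Mean log2 level of 20 genes in adult control µ (black circles), transplanted µ (orange circles), P10 TAµ (purple triangles) and transplanted TAµ (light orange triangles), with the floor at -4.70 as a dotted line and no error bars. Fos is low in both transplanted groups (6.43 and 6.52), Neat1 is high in control µ alone (8.18), and Cybb rises from control µ (3.15) over transplanted µ (6.58) to transplanted TAµ (9.73).

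The 15 largest rises among genes at or above the median of average expression ran from 4.28 (Gja1) to 8.08 (Ccnd2) and the 15 largest falls from -3.83 (Ccl4) to -5.43 (Klf2) in the authors' deposited table. The rises held several genes typical of astrocytes or neurons: Gja1, the gap junction protein connexin, Abat and Aldh5a1, which degrade GABA, and Sept3 and Hpcal4, which are neuronal and lost their calls under centring (adjusted p 0.0505 and 0.0568). Abat had 4.87 ± 1.44 in the authors' deposited table. The falls were led by immediate early genes and related factors, with Klf2, a zinc finger factor of quiescence, at -5.43 ± 1.70 and 0.0305 as its adjusted p in the authors' deposited table. Adamts1, a secreted protease, fell by 4.81 ± 0.79, and Rgs1, a regulator of chemokine signalling, by 4.19 ± 0.98 in the authors' deposited table. SEs of the 30 genes varied from 0.34 for Egr1 to 1.70 for Klf2, so the order within either set is loose. Xist and 4 Y-linked genes were not called and had SEs between 2.41 and 4.69. Their changes were large, at 3.96 ± 4.69 for Xist and -5.54 ± 3.26 for Ddx3y in the authors' deposited table. Kdm5d stood at -4.99 ± 2.87, Eif2s3y at -4.37 ± 2.89 and Uty at -3.52 ± 2.41 in the same source. A difference in the sex of the mice between the groups was not tested.

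**Figure D5:**
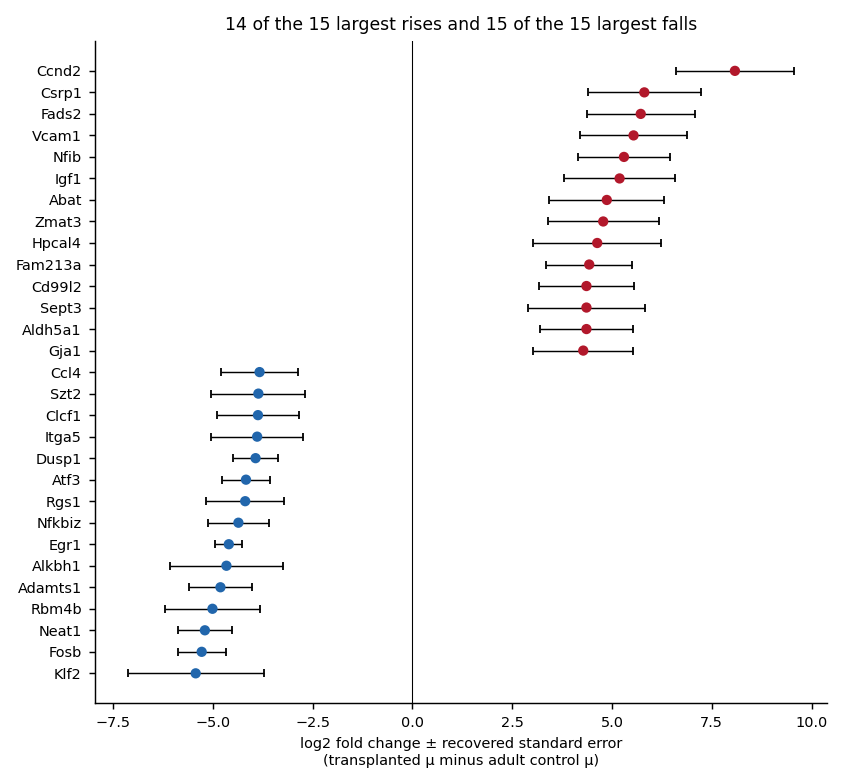
Among the largest changes, 14 of 15 rises (red) and 15 of 15 falls (blue) in transplanted µ against adult control µ among called genes at or above the median of average expression, as log2 fold change with the recovered standard error as bars. Ccnd2 stands furthest right at 8.08, and Egr1 at -4.60 has the shortest bar (0.34).

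The same transplantation was also measured in the other sorted fraction, as transplanted TAµ minus P10 TAµ, a comparison that shares no group with the first but differs from it in the age of the controls. The test of the difference treats the libraries as independent and leaves out that the transplanted libraries of both fractions came from the same mice, as the sample letters read. The difference of both effects passed an adjusted p of 0.05 in 13.4% of 13766 genes. Immediate early genes had a median of -2.65 in µ and -1.67 in TAµ, and 7 of 48 differed between the fractions by this test. Mitochondrially encoded genes had medians of 1.75 and 2.10, and astrocyte genes 2.68 and 2.51, with 0 of 7 and 0 of 18 called different. A missing call does not show that the effects are equal, since the median SE of a fold change in µ alone was 0.62. Homeostatic microglial genes went apart, with a median of 0.58 in µ and -0.56 in TAµ, 5 rises and 19 falls in TAµ, and 21 of 43 called different. Lysosomal genes had medians of 0.75 and -0.12, with 20 of 62 called different. For Laptm5 the levels were 10.74 in control µ, 12.13 in transplanted µ, 11.24 in transplanted TAµ and 11.42 in P10 TAµ.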

How the data were processed

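The source was 1 table of 13769 genes with the authors' comparisons of 4 groups (17 libraries), without values per library. Per the submitters' processing notes, STAR 2.3.0 aligned the reads to mm10, HTSeq 0.5.3 counted them and limma compared the groups. How libraries were normalized and genes filtered, and which annotation was used, is not given in the sources used here. The authors deposited log2 average expression and log2 fold changes. Their p-values, and the p-values adjusted by Benjamini-Hochberg, are limma's per the file headers. The score columns, a moderated F and a call of 1, 0 or -1, were deposited too. Depth per library is unknown here, and the standard errors give the precision.

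The headers leave the sign open; it was read from Mki67, which is higher in P10 TAµ. Standard errors were recovered from fold change and p at 18 degrees of freedom, a number solved from F. For 71 genes they came from the other contrasts, and for 30 with the smallest p from adjusted p and rank, which is an upper limit where ranks tie. Group levels came from the average read as the mean of 17 libraries. Genes read as 0 throughout 2 groups, from a fold change they share, then share a level (SD of at most 0.113, against up to 0.405 when 3 libraries are assumed per group). A level no more than 0.35 above -4.70 was called the floor. The difference of effects used these errors, with Benjamini-Hochberg adjustment. The recovery was tested on simulated data fitted with limma 3.58.1. Python 3.11.15, numpy 2.4.6, pandas 2.3.3 and scipy 1.17.1 were used.

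The members and the 59 gene lists were chosen with earlier results of these data known. Named genes are the 15 largest rises and falls of at least median expression, the 10 rises and falls of smallest adjusted p, the defining genes of each list, and up to 3 members per list and direction. Further list members were chosen after their values were seen. Beyond the series text nothing states that libraries are separate mice, so p-values measure the spread between libraries. Promoter sequences are RefSeq's (GRCm38.p6), matched by symbol, and transcripts are those of GENCODE M21. Alternatives were another threshold, a minimum fold change, Bonferroni adjustment, 2 expression filters and centring. Some genes that the naming rule selects are not reported here.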

Additional observations from a re-analysis of the deposited data

Results flagged for a closer look

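Among the named genes reported here, 28 were called in opposite directions after transplantation in µ and in TAµ, and the difference of both effects (TAµ minus µ, log2) also passed an adjusted p of 0.05 in the recovered test. The control groups of both comparisons differ in age, so fraction and age cannot be told apart. In 20 of them the effect was lower in TAµ. Among microglial genes the difference was -2.50 for P2ry12, -2.27 for P2ry13, -1.96 for Olfml3, -1.90 for Fcrls, -2.67 for Pros1, -2.99 for Sparc and -2.03 for Serpine2, each higher in transplanted µ and lower in transplanted TAµ than in the respective controls. Tanc2 (1.40) and Csf3r (1.66) went the opposite way. Cell-cycle genes had differences of -5.19 for Cdkn1a, -7.82 for E2f1, -3.75 for Mcm3 and -4.11 for Rrm1. Immune genes had 6.2 for H2-Q7, 4.09 for Lilrb4, -2.41 for Ly86 and -1.72 for Tnfrsf21. Gas6 had -3.04, with an effect of 1.84 in µ and -1.21 in TAµ. The remaining differences were -3.41 for Ldha, -2.23 for Itgb1, -2.12 for Nras, -2.02 for Psmd2, -3.42 for Psmd5 and -2.0 for Slc12a2, and 2.35 for Eif4a2, 2.39 for H3f3b, 1.68 for Cflar and 4.44 for Trpm2.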

How the results depend on the processing

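At an adjusted p of 0.01, 535 genes were higher and 620 lower, and 557 differed between µ and TAµ. Bonferroni adjustment left 36 higher and 91 lower. Keeping genes at or above the median of average expression and adjusting again gave 1173 higher and 674 lower, and the first quartile gave 1350 and 966, so that the share of calls that were higher went from 52.0% to 63.5% and 58.3%. A minimum log2 change of 1 gave 1224 and 1284. Centring on the median fold change gave 1072 higher and 1773 lower, 37.7% higher, and 1633 genes that differed between fractions. Of 404 named genes 0 reversed under centring, the only setting that could reverse a call, since the others kept the same fold changes. The first-quartile and median filters kept 360 and 299 of the named genes. Calls were lost by 113 genes at 0.01, 242 under Bonferroni adjustment, 44 under the minimum change and 26 under centring. A call was gained by 6 under centring and by 1 under each expression filter. No paired analysis was possible because the control libraries share no animals with the transplanted ones and values per library were not used here, and for the latter reason leaving out replicates was not run. Median SEs of 1.27 and 0.84 in the 2 lower expression quartiles limit what could be called there.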
